A study of Homo sapiens with 48 samples.

Results

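Sodium lauryl sulfate (SLS) is an anionic detergent and a common skin irritant in chemical testing. Its effect on gene expression was measured in THP-1 cells, a human monocytic leukemia line that grows in suspension. The comparison uses 9 of the 48 libraries of the study: 3 libraries of cells exposed to SLS, 3 libraries of vehicle series 1 and 3 libraries of vehicle series 2. The libraries were chosen by their labels. The study exposed the same line to 12 chemicals in all, and vehicle and untreated controls each come in a series 1 and a series 2.

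Per the labels, SLS was given for 12 h at a dose named CV90, which by common usage is one that most cells survive, and no concentration is stated in the sources used here. The vehicle was dimethyl sulfoxide (DMSO). The protocol states 0.1% DMSO, while the titles give 0.1, 0.2 and 0.3% for the libraries of vehicle series 1 and 0.4, 0.5 and 0.6% for those of vehicle series 2. Whether SLS was dissolved in DMSO, and which vehicle series was run beside it, the labels do not say. The untreated libraries, 3 in each series, had neither chemical nor vehicle. All groups share the line, its serum-containing medium and the time of collection. Nothing in the labels ties the libraries of a group to separate cultures, so p-values reflect library-to-library spread, which may be technical.

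THP-1 cells stand in for monocytes in tests of irritants and sensitizers, but they are 1 leukemia line. The integrated stress response is switched on when kinases that sense amino acid shortage, misfolded protein, heme shortage or viral RNA phosphorylate the translation factor eIF2. The transcription factor ATF4 is then made and raises genes for amino acid synthesis and uptake, for charging transfer RNAs and for braking growth. The peroxisome proliferator-activated receptors (PPARs) are nuclear receptors for fatty acids that raise genes of fatty acid storage and oxidation. Liver X receptors (LXRs) are nuclear receptors for oxysterols that raise genes of cholesterol export.

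The libraries held 9.34, 9.34 and 10.4 M counts (M, mega) with SLS, 9.53 to 10.9 M in vehicle series 1 and 8.64 to 9.41 M in vehicle series 2. The vehicle series differ from each other: 2983 of 15642 genes tested (19.1%) were called between them, 10.2% higher and 8.84% lower in vehicle series 2. An axis over all genes tested took its direction from untreated series 2 minus untreated series 1. It was scaled to 0 at the mean of vehicle series 1 and to 1 at the mean of vehicle series 2. The SLS libraries lay at 0.06 ± 0.02 (SD, n = 3), so on this axis they lie close to vehicle series 1. Of 10 monocytic markers all had counts, and their summed level was 1274 to 1330 CPM (counts scaled to a common library total) with SLS, 1408 to 1476 CPM in vehicle series 1 and 1031 to 1081 CPM in vehicle series 2. Most of this sum came from CEBPA and LYZ, which averaged 605 and 295 CPM with SLS, while CD14 was the lowest at 2.23 CPM. B cell markers summed to 16.8 to 18.8 CPM with SLS, 15.3 to 21.6 CPM in vehicle series 1 and 20.7 to 23.0 CPM in vehicle series 2, most of it from PAX5. The T cell, erythroid, epithelial and fibroblast lists summed to at most 1.74 CPM in any of the 9 libraries, with CD3E, KRT5, KRT14 and COL1A2 at 0.

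A gene counts as called, and as having risen or fallen, where SLS differed from both vehicle series in the same direction and the larger of the p-values passed 0.05 after Benjamini-Hochberg adjustment over all genes (edgeR quasi-likelihood test). By this rule 48 of 15642 genes (0.307%) were called, 44 higher (0.281%) and 4 lower (0.0256%), and 485 had an unadjusted p under 0.05. PDK4, INHBE, CHAC1, STC2, ADM2, SESN2 and PLIN2 rose the most, of which PDK4 and PLIN2 belong to a list of PPAR and fatty acid oxidation genes and CHAC1 and SESN2 to a list of the integrated stress response. The falls were ABCA1, RNF145, SESN3 and ADI1. Of the 48, 19 changed by at least 1 on the log2 scale, 18 higher and 1 lower. In every called gene all 3 SLS libraries lay beyond all 6 vehicle libraries. Over all genes tested, all 3 SLS libraries lay above all 6 vehicle libraries in 629 genes (4.02%) and below them in 499 (3.19%). The count was 140 when only the 9 libraries compared entered the fit and 687 when the mean of both vehicle series was the only reference. Without 1 of the 9 libraries at a time it was 36 to 44, and 31 of the 48 genes stayed called under every alternative tried.

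**Figure D1:**
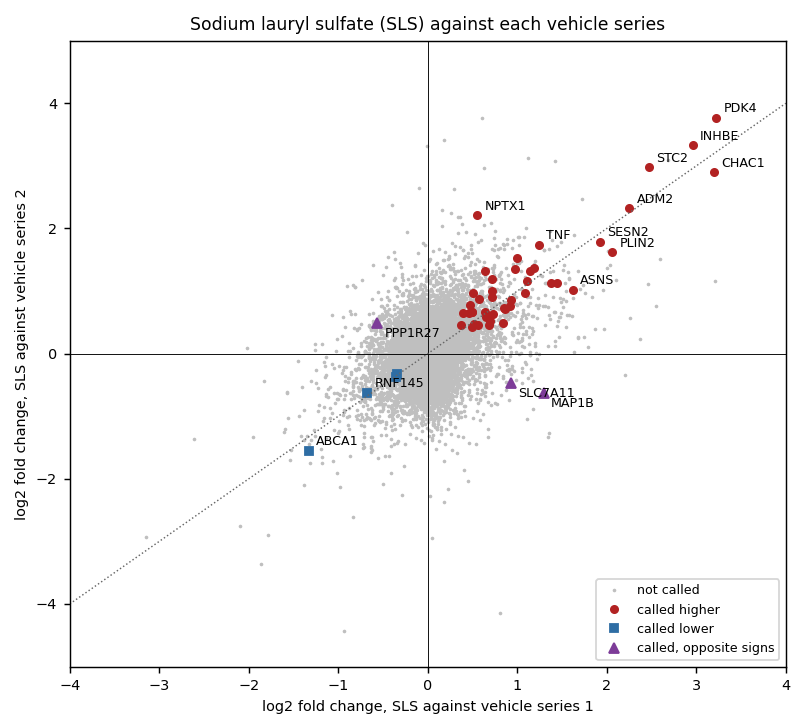
Each point is a gene averaging 1 CPM or more with SLS or with vehicle, placed by its log2 fold change with SLS against vehicle series 1 (x) and vehicle series 2 (y). Red circles and blue squares are genes called higher or lower, triangles are the 3 genes called with opposite signs, and the dotted line marks equal change. PDK4 and CHAC1 lie far out near the line and ABCA1 lies at the other end of it.

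The change with the smallest adjusted p was that of PLIN2, which encodes perilipin 2, a coat protein of lipid droplets. It stood at 318, 329 and 303 CPM in the SLS libraries, against 76.6, 81.4 and 69.8 CPM in vehicle series 1 and 99.8, 102 and 108 CPM in vehicle series 2. Vehicle series 2 lay a little above vehicle series 1, and every SLS library stood far above both. The mean log2 fold change over both series was 1.84 (SE 0.08, adjusted p = 1.63e-15), or 3.58-fold. PDK4, a kinase that turns off pyruvate dehydrogenase and so spares glucose when fat is burned, rose further. Its level was 36.3, 36.7 and 24.1 CPM with SLS, against 3.16, 3.02 and 4.15 CPM in vehicle series 1 and 2.59, 2.37 and 2.11 CPM in vehicle series 2. The third SLS library was lower than the other two and still far above every vehicle library. The log2 fold change was 3.50 (SE 0.25, adjusted p = 4.55e-10), or 11.3-fold. CPT1A, the enzyme that admits long-chain fatty acids to mitochondria, rose by less. It had 360.3, 351 and 334 CPM with SLS, against 206, 186 and 187 CPM in vehicle series 1 and 209, 205 and 216 CPM in vehicle series 2 (log2 0.79, SE 0.08, adjusted p = 1.76e-06).

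These were the called members of a list of PPAR targets and fatty acid oxidation genes. Of 20 listed genes, 15 passed the filter on low counts, and of these 3 rose and 0 fell, beside 0.281% and 0.0256% of all genes. The median log2 fold change of the 15 was 0.20, beside 0.01 over all genes tested. The carnitine-acylcarnitine carrier gene SLC25A20 (log2 0.75, adjusted p = 0.145) and the acyl-CoA dehydrogenase gene ACADVL (log2 0.50, adjusted p = 0.154) were higher in the mean and not called. The oxidation genes ACADM, HADHA and HADHB had log2 fold changes between -0.02 and 0.08. ANGPTL4, a secreted inhibitor of lipoprotein lipase and a PPAR target, had 8, 0 and 21 counts with SLS, against 0, 0 and 1 in vehicle series 1 and 0, 2 and 0 in vehicle series 2, and was not called. FABP4, a fatty acid carrier of adipocytes and macrophages, was below the filter, with 7, 25 and 35 counts with SLS, against 0, 0 and 0 in vehicle series 1 and 3, 1 and 0 in vehicle series 2. Of 12 tested genes of perilipins, lipid droplet proteins and their lipases, a list chosen after values were seen, PLIN2 alone was called. The other perilipins tested were PLIN3 (log2 -0.06) and PLIN4, whose log2 fold change was 0.01 relative to vehicle series 1 and 1.24 relative to vehicle series 2.

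The largest fall was that of ABCA1, the pump that loads cholesterol onto apolipoprotein A-I and a standard LXR target. Its level was 9.71, 9.22 and 9.92 CPM with SLS, against 21.9, 24.2 and 26.6 CPM in vehicle series 1 and 27.7, 30.9 and 26.1 CPM in vehicle series 2. The SLS libraries were close to each other and below every vehicle library. The log2 fold change was -1.44 (SE 0.15, adjusted p = 5.39e-07). In bulk RNA, less of it in each cell and fewer cells that carry it cannot be told apart. RNF145, a ubiquitin ligase gene of the endoplasmic reticulum known as an LXR target in mouse liver, had 28.6, 26.3 and 26.8 CPM with SLS, against 44.6, 42.1 and 44.1 CPM in vehicle series 1 and 40.9, 35.9 and 49.0 CPM in vehicle series 2 (log2 -0.65, SE 0.09, adjusted p = 0.000348).

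Of 8 LXR and cholesterol export genes, all tested, ABCA1 was the 1 that fell and 0 rose, beside 0.0256% and 0.281% of all genes (median log2 -0.28, beside 0.01 over all genes). MYLIP, a ubiquitin ligase that removes the LDL receptor, had 15.8, 9.95 and 13.3 CPM with SLS, against 18.7, 21.3 and 20.03 CPM in vehicle series 1 and 17.0, 22.9 and 19.0 CPM in vehicle series 2. Its SLS libraries were below all vehicle libraries, but the change was not called (log2 -0.60, adjusted p = 0.218). The apolipoprotein genes APOE and APOC1 had log2 fold changes of 0.01 and -0.07 against vehicle series 1, and of 1.17 and 0.89 against vehicle series 2. Among 23 sterol synthesis and uptake genes 0 were called (median log2 -0.03), and the one with the smallest p was INSIG1 (log2 -0.33, adjusted p = 1). Among 19 fatty acid and phospholipid synthesis genes 0 were called (median log2 -0.15). DGAT2, which makes triglyceride, had the smallest p there (log2 0.22, adjusted p = 1).

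**Figure D2:**
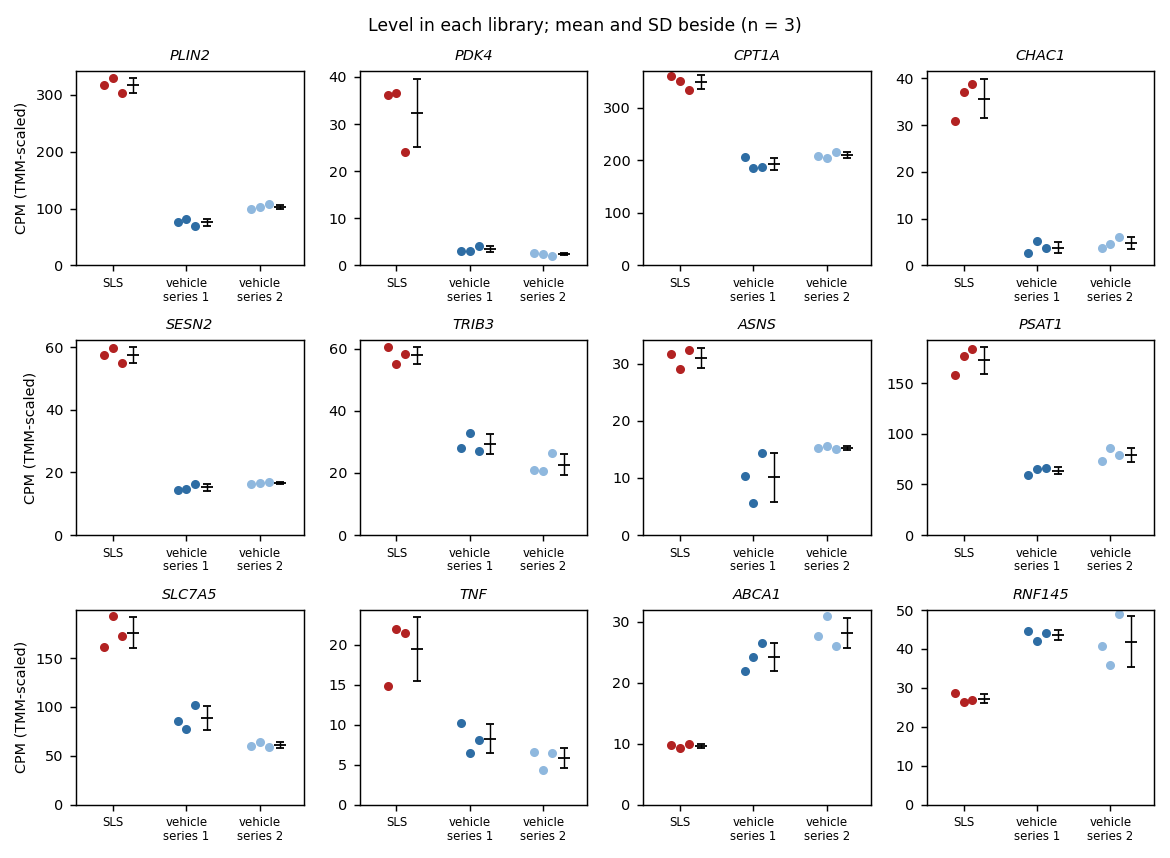
Level in CPM of the TMM-scaled library (y, from 0) of 12 called genes in each of the 3 SLS, 3 vehicle series 1 and 3 vehicle series 2 libraries, with mean and SD drawn beside the points. The SLS points lie above all vehicle points for the first 10 genes and below them for ABCA1 and RNF145.

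Of 20 genes of the integrated stress response, all tested, 9 rose and 0 fell, against 0.281% of all genes that rose. Their median log2 fold change was 0.91, beside 0.01 over all genes tested. The 9 were CHAC1, SESN2, ASNS, PSAT1, SLC7A5, TRIB3, MTHFD2, SLC3A2 and SHMT2. With the compared libraries alone in the fit 14 of the 20 were called, beside 140 calls over all genes, where the main rule gave 48. With the mean of both vehicle series as the only reference 17 were called, beside 687 over all genes. CHAC1 encodes an enzyme that degrades glutathione. It had 31.0, 37.1 and 38.9 CPM with SLS, against 2.65, 5.15 and 3.69 CPM in vehicle series 1 and 3.78, 4.50 and 6.10 CPM in vehicle series 2 (log2 3.05, SE 0.18, adjusted p = 1.64e-12). SESN2 encodes sestrin 2, which restrains the growth kinase complex mTORC1 when leucine is short. It had 57.6, 59.9 and 55.0 CPM with SLS, against 14.5, 14.7 and 16.4 CPM in vehicle series 1 and 16.4, 16.6 and 17.0 CPM in vehicle series 2. Both vehicle series were alike for this gene and the SLS libraries stood well apart (log2 1.85, SE 0.12, adjusted p = 3.57e-12). TRIB3, a pseudokinase that binds ATF4 and the kinase AKT, had 60.5, 55.0 and 58.2 CPM with SLS, against 28.1, 33.0 and 27.0 CPM in vehicle series 1 and 20.8, 20.5 and 26.5 CPM in vehicle series 2 (log2 1.17, SE 0.09, adjusted p = 5.55e-08).

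The transcription factors on the list, ATF4, DDIT3, ATF3 and CEBPB, were not called. ATF4 mRNA was 409, 439 and 437 CPM with SLS, against 213, 197 and 213 CPM in vehicle series 1 and 356, 367 and 392 CPM in vehicle series 2. It was called against the first series (log2 1.04, adjusted p = 2.25e-06) and not against the second (log2 0.20, adjusted p = 0.352). DDIT3, which encodes CHOP, had 77.3, 83.8 and 72.7 CPM with SLS, against 51.3, 46.9 and 51.0 CPM in vehicle series 1 and 61.3, 57.3 and 58.9 CPM in vehicle series 2. Its SLS libraries lay above all vehicle libraries, yet the rule over both series missed the threshold (log2 0.52, adjusted p = 0.0647). DDIT4, an inhibitor of mTORC1, was at the threshold (log2 1.19, adjusted p = 0.0501). ATF5, a basic leucine zipper factor like ATF4 and outside the list, rose (log2 1.25, SE 0.09, adjusted p = 3.35e-10), with 184, 180.3 and 169 CPM with SLS against 69.8, 65.0 and 70.6 CPM in vehicle series 1 and 87.0, 76.6 and 80.2 CPM in vehicle series 2. JDP2, a repressor that pairs with Jun and ATF proteins, rose by 0.90 (SE 0.12, adjusted p = 0.000348).

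Against vehicle series 1 alone, 16 of the 20 genes were called higher and 0 lower, beside 0.563% and 0.128% of all genes. Against vehicle series 2 alone 15 were called higher and 1 lower, beside 8.3% and 9.61% of all genes. The medians were 1.02 against series 1 and 0.70 against series 2, beside 0 and 0.02 over all genes. The members called against series 1 and not against both were ATF3, ATF4, DDIT3, DDIT4, PCK2, PHGDH and SLC7A11. The series differ from each other in some of the same genes: vehicle series 2 was higher than vehicle series 1 by 0.84 (log2) for ATF4, by 0.81 for PHGDH and by 1.39 for SLC7A11. For SLC7A11, the cystine transporter, SLS libraries lay between the series, at 88.8, 91.7 and 88.7 CPM with SLS against 52.0, 42.8 and 46.6 CPM in vehicle series 1 and 132, 121 and 117 CPM in vehicle series 2.

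**Figure D3:**
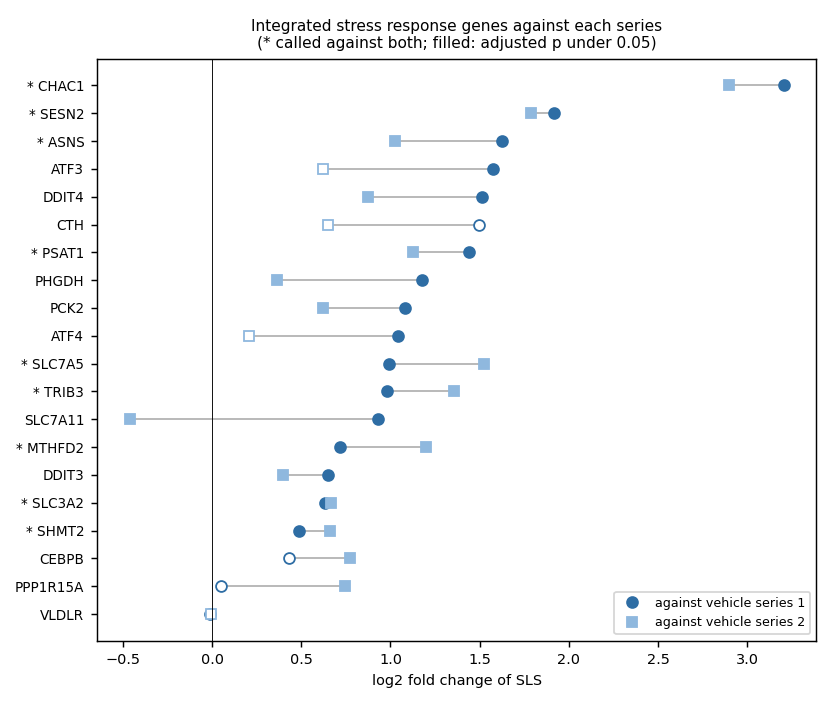
Log2 fold change with SLS (x) of the 20 integrated stress response genes against vehicle series 1 (dark circles) and vehicle series 2 (light squares). Symbols are filled where the adjusted p of that series alone was under 0.05, and an asterisk marks the 9 genes called against both. SLC7A11 is the 1 gene with filled symbols on both sides of 0.

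Called genes of amino acid and one-carbon metabolism are given one by one, since no list of this metabolism was tested. PSAT1, the aminotransferase of serine synthesis, had 158, 177 and 183 CPM with SLS, against 59.6, 65.6 and 65.7 CPM in vehicle series 1 and 72.9, 86.3 and 78.5 CPM in vehicle series 2 (log2 1.28, SE 0.12, adjusted p = 5.39e-07). ASNS, asparagine synthetase, had 31.7, 29.1 and 32.4 CPM with SLS, against 10.3, 5.68 and 14.3 CPM in vehicle series 1 and 15.2, 15.6 and 15.0 CPM in vehicle series 2. The second vehicle series 1 library was the lowest, and every SLS library was above every vehicle library (log2 1.32, SE 0.17, adjusted p = 0.00503). The mitochondrial folate enzymes MTHFD2 and SHMT2 rose by 0.96 (log2, adjusted p = 0.000539) and 0.57 (adjusted p = 0.01). The mitochondrial alanine aminotransferase gene GPT2 rose by 0.84 (adjusted p = 0.000535). CBS, which begins cysteine synthesis from homocysteine, rose by 0.62 (adjusted p = 0.000261), and ASS1, an enzyme of arginine synthesis from citrulline, by 0.50 (adjusted p = 0.0194). PHGDH, the first enzyme of serine synthesis, differed from vehicle series 1 by 1.18 and from vehicle series 2 by 0.37 and was not called (adjusted p = 0.338). SHMT2 lost its call without the third SLS library (adjusted p = 0.158) and without the second or the third of vehicle series 1 (adjusted p = 0.144 and 0.057). ASS1 lost it without any 1 SLS library, the third of vehicle series 1 or the first or the third of vehicle series 2 (adjusted p from 0.0754 to 0.175). ADI1, an enzyme of methionine salvage, fell by a small step: 109, 111 and 113 CPM with SLS, against 138, 144 and 141 CPM in vehicle series 1 and 143, 140.1 and 136 CPM in vehicle series 2 (log2 -0.34, SE 0.06, adjusted p = 0.0194). The fall of ADI1 was not called without any 1 of the 9 libraries other than the first of vehicle series 1 (adjusted p from 0.0511 to 0.151).

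Amino acid transporters rose for 4 of 22 tested genes and fell for 0, beside 0.281% and 0.0256% of all genes (median log2 0.20, beside 0.01 over all genes), in a list chosen after values were seen. SLC7A5, the light chain of the leucine transporter LAT1, had 161, 193 and 173 CPM with SLS, against 85.3, 77.6 and 102 CPM in vehicle series 1 and 59.4, 64.3 and 59.2 CPM in vehicle series 2 (log2 1.26, SE 0.11, adjusted p = 9.87e-07). SLC7A5 has partial pseudogene copies, so its value is uncertain where reads could match them. SLC3A2, the heavy chain that SLC7A5 binds, had 217, 225 and 239 CPM with SLS, against 147, 157 and 135 CPM in vehicle series 1 and 142, 144 and 143 CPM in vehicle series 2. It rose by 0.65 (SE 0.09, adjusted p = 0.000288). The neutral amino acid carriers SLC38A2 and SLC38A1 rose by 0.56 (adjusted p = 0.000723) and 0.41 (adjusted p = 0.0471). SLC38A1 lost its call without any 1 of the 9 libraries (adjusted p from 0.0559 to 0.254) and with a replicate block (adjusted p = 0.0566). The glutamine carrier SLC1A5 had a log2 fold change of 0.25 and the cationic carrier SLC7A1 of 0.19, and neither was called.

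Cytosolic aminoacyl-tRNA synthetases, which load amino acids onto transfer RNAs, rose for 6 of 20 genes and fell for 0, beside 0.281% and 0.0256% of all genes (median log2 0.16, beside 0.01 over all genes). Of 17 mitochondrial synthetases 0 were called (median log2 -0.08, with IARS2 at -0.33). Both lists are complete families chosen after values were seen. The 6 were the synthetases for cysteine (CARS, log2 0.78), alanine (AARS, 0.68), glycine (GARS, 0.66), tyrosine (YARS, 0.64), tryptophan (WARS, 0.61) and threonine (TARS, 0.46). TARS was the most tightly measured, with 516, 503 and 503 CPM with SLS, against 365, 371 and 344 CPM in vehicle series 1 and 382, 375 and 374 CPM in vehicle series 2 (SE 0.05, adjusted p = 1.06e-05). The SLS libraries lay above every vehicle library, and the vehicle series were close to each other. GARS also encodes the mitochondrial glycine enzyme. GARS lost its call without the first or second library of vehicle series 2 (adjusted p = 0.0575 and 0.0677), and WARS without the third (adjusted p = 0.0556). The synthetases for glutamine (QARS, -0.18), histidine (HARS, -0.06), arginine (RARS, -0.05) and aspartate (DARS, -0.01) had values below 0 and were not called.

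**Figure D4:**
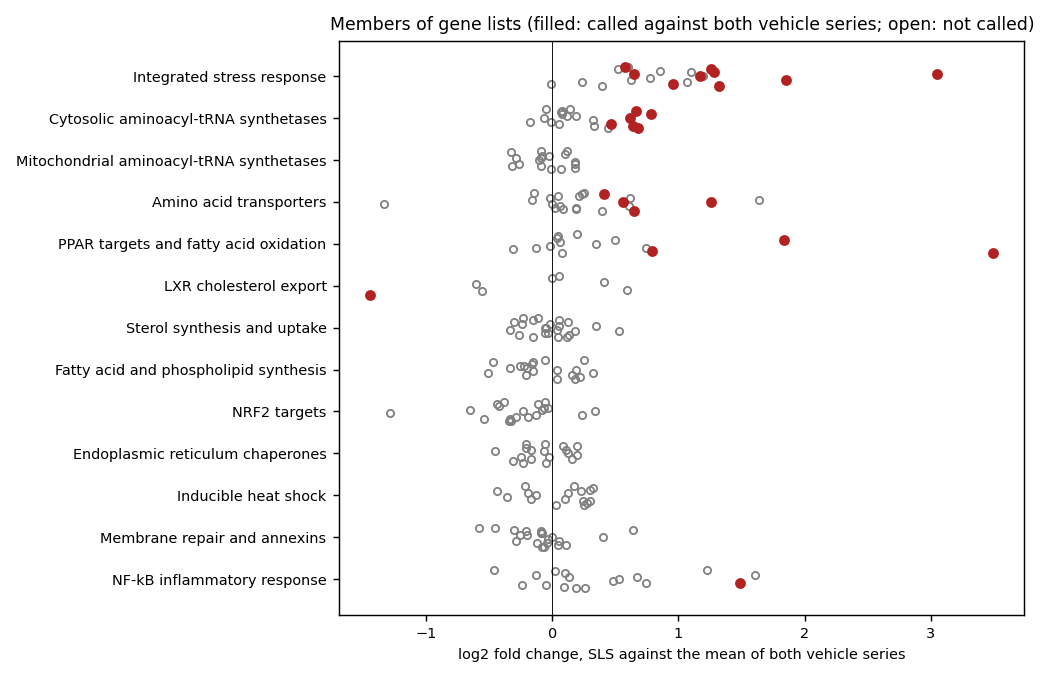
Log2 fold change with SLS against the mean of both vehicle series (x) for the tested members of 13 gene lists averaging 1 CPM or more with SLS or with vehicle. Filled circles are called and open circles are not, with small vertical offsets for legibility. The stress response row has 9 filled circles, all to the right of 0, and ABCA1 is the 1 filled circle to the left of 0.

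Promoter sequences show where a known element of this response lies in the called genes. The element, TGATGNAA, is bound by ATF4 paired with a C/EBP protein and was searched on both strands of RefSeq promoter windows (250 bases before to 50 bases after the start, GRCh38.p14, a later build than that of the counts). Of the 48 called genes 38 had a window, and 9 of these (23.7%) held the element. All 9 were genes that rose, as were 34 of the 38 genes with a window, so nothing is read from their direction. Of all 35116 windows 3.62% held it, and of all 27305 genes with a window 4.46%. No test of enrichment was made. A match does not show binding, and no match says only that these letters are not in this window. The TARS, CARS and AARS windows stand under TARS1, CARS1 and AARS1 in RefSeq. The stretches are shown since the same letters stand in windows of a stress enzyme, asparagine synthetase, transporters and synthetases. Each runs 5′ to 3′ on the strand of its gene, with the element in capitals (TTNCATCA where it lies on the opposite strand).
S100P (chr4:6693743-6693774, plus strand): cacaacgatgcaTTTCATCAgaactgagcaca
TARS (chr5:33440955-33440986, plus strand): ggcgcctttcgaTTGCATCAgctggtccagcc
ASNS (chr7:97872457-97872488, minus strand): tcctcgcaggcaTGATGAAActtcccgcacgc
CARS (chr11:3057406-3057437, minus strand): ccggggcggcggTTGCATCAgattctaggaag
SLC3A2 (chr11:62881724-62881748, plus strand): gtgcaggactccTTACATCAgctcc
SLC38A1 (chr12:46266501-46266532, minus strand): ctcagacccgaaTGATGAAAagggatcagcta
JDP2 (chr14:75427994-75428025, plus strand): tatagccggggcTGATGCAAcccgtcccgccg
CHAC1 (chr15:40953250-40953281, plus strand): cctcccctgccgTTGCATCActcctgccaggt
AARS (chr16:70289674-70289705, minus strand): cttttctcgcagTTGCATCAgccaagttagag

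The spacing of the element from the start of its gene varied. It began 209 bases before the start in CHAC1, 187 in AARS, 123 in S100P, 68 in ASNS, 16 in JDP2, 4 in SLC38A1 and 2 in CARS. In SLC38A1 and CARS the element runs across the start. In TARS it began at base 3 and in SLC3A2 at base 38 after the start. A spaced LXR element, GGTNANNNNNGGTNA, was searched in the same way and found in 1 called gene, ABCA1, and in 0.626% of all windows. It began 69 bases before the start of ABCA1, on the opposite strand, and did not overlap the other element, which that window lacks.
ABCA1 (chr9:104928198-104928236, minus strand): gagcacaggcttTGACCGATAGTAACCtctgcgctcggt

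The PPAR element AGGTCANAGGTCA was in 0 of the 38 windows and in 0.0228% of all windows, and its looser form AGGNCANAGGNCA in 0 of 38 and in 0.31%. The windows of PDK4, PLIN2 and CPT1A are among the 38.

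Called genes that encode secreted proteins include STC2, ADM2, INHBE and VEGFA, described here one by one, with no list of such genes tested. STC2, a secreted glycoprotein raised in stressed cells, had 5.99, 5.45 and 6.04 CPM with SLS, against 1.53, 1.07 and 0.554 CPM in vehicle series 1 and 0.539, 1.07 and 0.587 CPM in vehicle series 2 (log2 2.73, SE 0.34, adjusted p = 0.000288). ADM2, a peptide hormone of the calcitonin family, had 22.2, 22.7 and 24.6 CPM with SLS, against 4.69, 4.97 and 4.89 CPM in vehicle series 1 and 3.99, 3.79 and 6.10 CPM in vehicle series 2 (log2 2.29, SE 0.18, adjusted p = 5.37e-10). For ADM2 the means of the vehicle series were close, and for STC2 vehicle series 2 minus vehicle series 1 was -0.51 (log2, not called). STC2 was near the lower limit of detection in vehicle, with 15, 12 and 6 counts in vehicle series 1 and 5, 9 and 5 in vehicle series 2. For both genes every SLS library stood above every vehicle library. INHBE, a subunit of activin E, was near the lower limit of detection in vehicle, with 37, 35 and 46 counts with SLS, against 1, 10 and 5 in vehicle series 1 and 3, 0 and 7 in vehicle series 2 (log2 3.14, SE 0.59, adjusted p = 0.049). INHBE lost its call without any 1 of the 9 libraries (adjusted p from 0.0507 to 0.484) and with a replicate block (adjusted p = 0.0587). VEGFA, the vascular growth factor, had 36.3, 35.2 and 31.7 CPM with SLS, against 15.3, 14.8 and 16.6 CPM in vehicle series 1 and 15.1, 11.5 and 14.8 CPM in vehicle series 2 (log2 1.23, SE 0.17, adjusted p = 0.000535). It was the 1 called member, with 0 lower, of 23 tested genes of hypoxia and glycolysis (median log2 -0.10). Of all genes, 0.281% were called higher and 0.0256% lower.

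TNF, a central inflammatory cytokine, was the 1 called member, with 0 lower, of 24 tested NF-kB response genes (median log2 0.12), beside 0.281% and 0.0256% of all genes. It had 14.9, 22.0 and 21.5 CPM with SLS, against 10.2, 6.48 and 8.12 CPM in vehicle series 1 and 6.58, 4.38 and 6.46 CPM in vehicle series 2 (log2 1.49, SE 0.18, adjusted p = 0.000425). TNF lies in the major histocompatibility complex and occurs on 8 rows of the files, so its value is uncertain. CXCL8, which encodes interleukin 8, differed by 0.16 (log2) from vehicle series 1 and by 2.29 from vehicle series 2 and was not called. The complement gene C3 rose by 0.98 (SE 0.12, adjusted p = 0.00967), and S100P, a calcium-binding protein gene, by 1.14 (SE 0.20, adjusted p = 0.00855). NPTX1, a neuronal pentraxin gene, had 127, 111 and 108 CPM with SLS, against 75.5, 83.6 and 76.2 CPM in vehicle series 1 and 27.3, 25.6 and 21.8 CPM in vehicle series 2. Its log2 fold change was 0.56 relative to the first series and 2.21 relative to the second, so the mean of 1.38 (adjusted p = 0.0463) joins unequal values. NPTX1 lost its call without any 1 of the 9 libraries (adjusted p from 0.0508 to 0.416). C3 lost it without the first or second SLS library or the first or second of vehicle series 1 (adjusted p from 0.0569 to 0.163), and S100P without the first SLS library, the first or second of vehicle series 1 or the first of vehicle series 2 (adjusted p from 0.0791 to 0.185).

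Further called genes encode kinases, adaptors and regulators, which were not tested as a group. RPS6KA2, a ribosomal S6 kinase, had 17.6, 21.8 and 23.5 CPM with SLS, against 9.48, 12.4 and 5.63 CPM in vehicle series 1 and 7.12, 10.8 and 6.57 CPM in vehicle series 2 (log2 1.28, SE 0.18, adjusted p = 0.00114). GRB10, an adaptor that dampens insulin signalling, rose by 1.03 (SE 0.16, adjusted p = 0.00503), and EIF4EBP1, a repressor of cap-dependent translation, by 0.72 (adjusted p = 0.0466). The Src family kinase FYN rose by 0.81 (adjusted p = 0.0111) and RGS16, a regulator of G protein signalling, by 0.74 (adjusted p = 0.0463). SESN3 moved against its relative SESN2, with 197, 178 and 171 CPM with SLS, against 233, 228 and 236 CPM in vehicle series 1 and 246, 226 and 235 CPM in vehicle series 2 (log2 -0.36, SE 0.07, adjusted p = 0.0206). The other genes that rose were APOL6 (0.86), RNF41 (0.63), HAX1 (0.58), MCEMP1 (0.57), BTG1 (0.52) and FAM129A (0.51), all log2 fold changes with adjusted p from 5.39e-07 to 0.0418.

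Several of these calls were lost with 1 library fewer, while the folds kept their sign and much of their size. Under the alternatives tried the log2 fold change was 1.15 to 1.42 for RPS6KA2, 0.93 to 1.16 for GRB10, 0.70 to 0.89 for FYN, 0.62 to 0.86 for EIF4EBP1, 0.68 to 0.79 for RGS16, 0.60 to 0.66 for RNF41 and -0.42 to -0.32 for SESN3. RPS6KA2 was not called without the third library of vehicle series 1 (adjusted p = 0.0714), and FYN not without the second SLS library (adjusted p = 0.22) or the second of vehicle series 1 (adjusted p = 0.185). GRB10 was not called without the first SLS library or the first or the third of vehicle series 2 (adjusted p from 0.0559 to 0.0754). EIF4EBP1 kept its call without the first SLS library or without the first of vehicle series 1, and lost it without any other of the 9 (adjusted p from 0.0563 to 0.512). SESN3 kept it without the first SLS library or without the second of vehicle series 2, and lost it without any other (adjusted p from 0.0508 to 0.292). RGS16 lost it without any library but the third of vehicle series 2 (adjusted p from 0.0575 to 0.322), and RNF41 without any but the second of that series (adjusted p from 0.0508 to 0.268).

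Of 24 pathway lists, 19 had 0 called members. With 0.307% of all genes called, lists of these sizes hold few or 0 called members at the background share, so nothing is read from a count of 0. Membrane and protein folding lists are among them. Of 21 membrane repair and annexin genes 0 were called (median log2 -0.08), and S100A11, a partner of annexin A1, had the smallest p (log2 0.40, adjusted p = 0.399). Of 18 endoplasmic reticulum chaperones 0 were called (median -0.06, with HSP90B1 at -0.31), and of 17 inducible heat shock genes 0 (median 0.12, with DNAJA1 at -0.21). Of 20 NRF2 targets, the genes of the oxidant response, 0 were called (median -0.26, with OSGIN1 at -1.29). OSGIN1 had 17, 18 and 15 counts with SLS, against 27, 31 and 18 in vehicle series 1 and 81, 59 and 48 in vehicle series 2. Its mean joins unequal values. Against vehicle series 2 alone 14 of the NRF2 targets were called lower and 0 higher, beside 9.61% and 8.3% of all genes. Against vehicle series 1 alone 0 were called lower and 1 higher, beside 0.128% and 0.563% of all genes. Of 10 metallothionein and zinc export genes 0 were called (MT2A -0.55). Their median was -0.05 against vehicle series 1 and -0.78 against vehicle series 2. Of 24 interferon-stimulated genes 0 were called (IFIT2 -2.42). IFIT2 was near the lower limit of detection, with 0, 2 and 4 counts with SLS, against 7, 16 and 6 in vehicle series 1 and 10, 17 and 10 in vehicle series 2. Of 15 immediate early genes 0 were called. EGR1 among them had 40.9, 58.3 and 75.5 CPM with SLS, against 37.3, 24.2 and 41.1 CPM in vehicle series 1 and 19.5, 18.7 and 20.8 CPM in vehicle series 2 (log2 1.17, adjusted p = 0.154), and its first SLS library lay below the third of vehicle series 1.

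Cell cycle, organelle and differentiation lists gave 0 calls too: 20 genes of G2 and mitosis (median -0.19, BUB1B -0.45), 22 of DNA replication (median -0.10, GINS1 -0.35), 20 linked to p53 and apoptosis (median 0.05, SESN1 0.30) and 18 of ribosome biogenesis (median -0.04, POLR1C -0.34). Lists of the respiratory chain (20 genes, ATP5A1 -0.25), lysosome and autophagy (21 genes, GLA -0.27), actin and SRF targets (18 genes, CORO1A 0.35), macrophage maturation (16 genes, TREM2 0.39) and plasminogen activation (9 genes, PLAUR 0.30) also had 0 called members. Activation markers of THP-1 cells used in sensitizer testing were near 0. CD86 had 3, 1 and 1 counts with SLS, against 9, 3 and 5 in vehicle series 1 and 5, 5 and 14 in vehicle series 2. ICAM1, which encodes CD54, had 0, 1 and 0 counts with SLS, against 4, 0 and 4 in vehicle series 1 and 6, 3 and 3 in vehicle series 2. Neither was called, and at these counts a fall or a modest rise in either gene was below what the test could detect. CD14, the LPS co-receptor of monocytes, had 1.65, 2.41 and 2.46 CPM with SLS, against 3.06, 2.49 and 2.68 CPM in vehicle series 1 and 2.91, 2.01 and 1.41 CPM in vehicle series 2 (adjusted p = 1).

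Each vehicle series alone gives another count. Against vehicle series 1, 108 genes (0.69%) were called, 88 higher and 20 lower. That count was 64 without the second SLS library, and 61 and 71 without the second and the third library of vehicle series 1. Against vehicle series 2, 2802 genes (17.9%) were called, 1299 higher and 1503 lower. All 48 genes called against both series were also called against each series alone, as the rule nearly fixes. They make up 44.4% of the calls against series 1 and 1.71% of those against series 2. A further 3 genes were called in opposite directions. SLC7A11 is given above. MAP1B, a microtubule-associated protein gene, had 35.4, 40.6 and 38.9 CPM with SLS, against 17.8, 13.2 and 15.9 CPM in vehicle series 1 and 60.2, 61.0 and 56.5 CPM in vehicle series 2. PPP1R27, a phosphatase regulator gene, had 114, 107 and 123 CPM with SLS, against 161, 161 and 189 CPM in vehicle series 1 and 86.6, 81.8 and 77.1 CPM in vehicle series 2. In each of the 3, the SLS libraries lie between the series.

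The untreated libraries are controls that the vehicle comparison did not use. Against both untreated series, 49 genes (0.313%) were called with SLS, 44 higher (0.281%) and 5 lower (0.032%). The SLS libraries are shared with the vehicle comparison, so the comparisons are not independent. PDK4 stood 3.63 (log2) above untreated cells (adjusted p = 6.98e-11) and 3.50 above vehicle. CHAC1 stood 2.95 above untreated cells, ADM2 2.28, STC2 2.70, PLIN2 1.80 and SESN2 1.64, each called, while INHBE stood 2.44 above and was not (adjusted p = 0.299). Of the 48 genes called against vehicle, 38 (79.2%) were called in the same direction against untreated cells, where they make up 77.6% of the 49. The 10 not called there were INHBE, NPTX1, S100P, FYN, RNF41, MCEMP1, BTG1, ASS1, SESN3 and ADI1, with adjusted p from 0.0767 to 1. ABCA1 stood at -1.24 (adjusted p = 1.89e-05) and RNF145 at -0.65 (adjusted p = 0.000402). EGR1 was higher than in untreated cells by 1.85 (adjusted p = 1.69e-06). NDRG1 (-0.50, adjusted p = 0.0104), ADCK3 (-0.54, adjusted p = 0.0284) and LOC100506585 (-0.99, adjusted p = 0.00315) were lower. NDRG1 lost its call without 6 of the libraries in turn (adjusted p from 0.0531 to 0.172), ADCK3 without 7 (adjusted p from 0.0706 to 0.334) and LOC100506585 without the third of untreated series 1 (adjusted p = 0.0815). NDRG1 kept it without the first SLS library, the third of untreated series 1 or the first of untreated series 2, and ADCK3 without the first library of either untreated series.

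Among the 12 chemicals, the same rule against both vehicle series gave from 5 calls (benzoic acid) to 6549 (mercuric chloride), and SLS with 48 calls lay above 5 of the others and below 6. Group means of the called genes place SLS among the others. The same SLS libraries chose these genes, so an extreme rank of SLS partly follows from the choice. Of the 44 genes that rose, SLS had the highest mean of all 16 groups in 11 and was among the 3 highest in 35. Mercuric chloride had the highest mean in 16 of the 44 and tofacitinib in 10. By the same rule mercuric chloride was called for 41.9% of all genes and tofacitinib for 2.32%. How often each group has the highest mean over all genes tested was not computed, so nothing is read from these counts. Of the 4 that fell, SLS had the lowest mean of the 16 groups in 3, all but SESN3. PDK4 averaged 32.3 ± 7.14 CPM with SLS and 10.1 ± 1.51 CPM with dexamethasone, the next highest, while the other groups had means from 1.45 ± 0.543 (LPS) to 4.71 ± 0.93 CPM (prednisolone). CPT1A averaged 348 ± 13.4 CPM with SLS, and the next highest group was untreated series 2 at 245 ± 19.3 CPM. For PLIN2, SLS with 317 ± 13.1 CPM lay below mercuric chloride (449 ± 52.7 CPM) and above dexamethasone (173 ± 27.5 CPM). These group values are mean ± SD over 3 libraries.

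**Figure D5:**
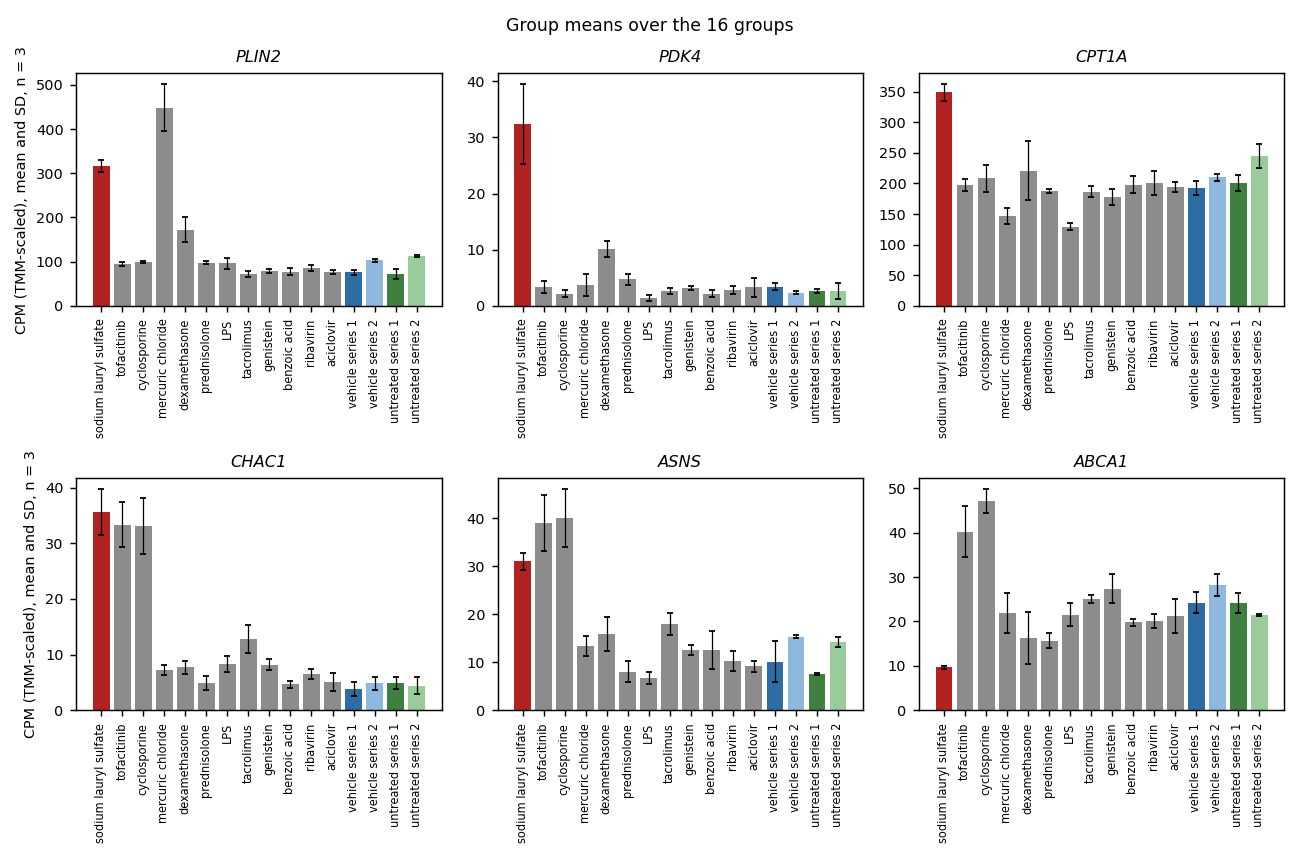
Mean level in CPM (bars from 0, with SD, n = 3 libraries) of 6 genes in all 16 groups, with SLS in red at the left, vehicle in blue and untreated in green. SLS is the highest bar for PDK4 (32.3 CPM), CPT1A (348 CPM) and CHAC1 (35.7 CPM) and the lowest for ABCA1 (9.61 CPM).

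SLS was also set directly against tofacitinib, an inhibitor of JAK kinases, which shares no library with it and whose axis position was 0.31 ± 0.11. By this contrast 1219 genes (7.79%) differed, 664 higher with SLS (4.24%) and 555 lower (3.55%). Of 15 PPAR and fatty acid oxidation genes 5 were higher with SLS and 0 lower, and of 19 fatty acid and phospholipid synthesis genes 3 were higher and 1 lower. PDK4 was higher with SLS by 3.25 (log2, adjusted p = 4.99e-10), PLIN2 by 1.74 (adjusted p = 1.13e-16) and CPT1A by 0.82 (adjusted p = 5.18e-08), and ABCA1 was at -2.06 (adjusted p = 1.15e-12). Of the 20 stress response genes 2 were higher with SLS and 2 lower. CHAC1 averaged 35.7 ± 4.15 CPM with SLS, 33.3 ± 4.06 CPM with tofacitinib and 33.1 ± 5.04 CPM with cyclosporine, and its difference from tofacitinib was 0.10 (SE 0.20, adjusted p = 0.846). For SESN2 the difference was -0.05 (SE 0.13), for ASNS -0.33 (SE 0.20) and for ADM2 -0.19 (SE 0.19), none called. SLC7A5 was higher with SLS by 0.73 (adjusted p = 0.000125). Of 23 sterol synthesis and uptake genes 12 were higher with SLS than with tofacitinib and 0 lower. The other large differences among genes that averaged 5 CPM or more with either chemical were SNCAIP (2.08), CXCL8 (2.03) and HIST1H1C (1.79), higher with SLS, and TBC1D30 (-3.61) and DHRS3 (-1.60), lower with SLS. HIST2H2BF (1.83), NCF1C (-1.84) and NCF1 (-1.72) have near-identical copies and are uncertain. The count was 744, 703 and 793 without the first, second and the third SLS library and 720 without the second tofacitinib library. SNCAIP lost its call without the second SLS library or the first or second tofacitinib library (adjusted p from 0.0584 to 0.0704).

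Against the mean of 9 other treatments (all but mercuric chloride and cyclosporine), 573 genes (3.66%) differed, 354 higher with SLS (2.26%) and 219 lower (1.4%). The count was 281, 242 and 334 without the first, second and the third SLS library, and 333 with the libraries compared alone in the fit. Among genes that averaged 5 CPM or more with SLS or in the other treatments, the 5 largest rises were PDK4 (3.30), STC2 (2.41), CHAC1 (2.12), ADM2 (1.80) and PLIN2 (1.79), with adjusted p from 9.98e-26 to 1.21e-09. ABCA1 (-1.20) and ADORA3 (-1.24, adjusted p = 0.0192) were lower, beside the uncertain copies NCF1C (-1.83), NCF1 (-1.63) and NCF1B (-1.50). ADORA3 lost its call without the first or second SLS library (adjusted p = 0.286 and 0.0893). Of the 48 genes called against vehicle, 43 differed from these treatments in the same direction and SESN3 in the opposite one (0.37, adjusted p = 1.11e-05). The same SLS libraries chose the 48 genes, so much of this overlap follows from the choice. Of 20 stress response genes 14 were higher and 0 lower, and of 15 fatty acid genes 7 were higher and 0 lower. The 4 not called there were JDP2 (0.01), RGS16 (-0.05), C3 (0.24) and RPS6KA2 (0.22), with adjusted p from 0.208 to 0.996.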

How the data were processed

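RNA was sequenced from THP-1 cells, and the comparison uses 3 SLS and 6 vehicle libraries, with untreated and other treated libraries beside them. Per the labels' protocols, the libraries were made with a Lexogen Quant-Seq kit, which reads near the 3′ ends of transcripts. The authors deposited whole-number counts per gene symbol. Bowtie2, bedtools and hg19 (GRCh37) appear in the submitters' processing notes, without versions. The annotation and any use of strand are not stated there, so a gene and an antisense partner cannot be told apart. Rows with the same symbol were summed (286 symbols on 1561 of 25737 rows, 1.36% of counts), which left 24462 symbols.

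All 48 libraries in 16 groups entered 1 fit with edgeR 4.0.16 in R 4.3.3 (TMM scaling, filterByExpr, quasi-likelihood test, 32 residual degrees of freedom, biological variation 0.122 as a coefficient of variation). SLS was tested against each vehicle series, the larger p was kept where the signs matched and p was set to 1 elsewhere, with Benjamini-Hochberg adjustment over 15642 genes. The log2 fold change against both series is the mean of both values, with an SE that leaves out how the series differ. CPM were computed from the TMM-scaled libraries, and marker sums from unscaled totals. Direct contrasts with tofacitinib and with the mean of 9 treatments used the same fit.

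The scripts were tested on simulated data. Alternatives were RLE scaling, no filter and a filter at 5 CPM, DESeq2 1.42.0, limma-voom (limma 3.58.1), a replicate block, fits of the compared libraries alone, leaving out each library, and the mean of both vehicle series as only reference. Pairs of libraries of a group used here were compared by chi-square, none was identical, and each counts as 1 replicate.

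The members, lists and tests were chosen with earlier results of these data known, and 4 family lists (both synthetase lists, amino acid transporters, perilipins) after values were seen. The naming rule took the 12 largest rises and falls with a mean of at least 5 CPM, up to 4 called members of each list or else its member with the smallest p, CD86, ICAM1 and CD14, genes called with opposite signs, and 5 rises and falls in the other comparisons. Every other called gene and the other members given with values were added after their values were seen. The promoter sequences are from RefSeq on GRCh38.p14. Some list members are not reported here.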

Additional observations from a re-analysis of the deposited data

Results flagged for a closer look

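MAP1B, SLC7A11 and PPP1R27 stood out because the effect of SLS had opposite signs against the vehicle series, each past an adjusted p of 0.05 (edgeR quasi-likelihood test). The genes were chosen for these signs, so the difference between the series, given as vehicle series 2 minus vehicle series 1, follows from the choice and is a description. For MAP1B it was 1.92 (log2), with SLS at 1.29 against vehicle series 1 and -0.63 against vehicle series 2. For SLC7A11 it was 1.39, with SLS at 0.93 and -0.46 in the same order. For PPP1R27 it was -1.05, with SLS at -0.57 and 0.49. Which series was run beside SLS is not given in the sources used here.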

How the results depend on the processing

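The count of 48 genes called against both vehicle series was 47 to 59 under RLE scaling, no filter, the filter at 5 CPM, DESeq2, limma-voom and the replicate block, 36 to 44 without 1 library at a time, 140 with the compared libraries alone in the fit and 687 with the mean of both vehicle series as the only reference. The fit of the compared libraries alone gave 376 calls against vehicle series 1, 4643 against vehicle series 2, 101 against both untreated series and 333 against the 9 treatments, and the cause was not tested. Without 1 library at a time the counts were 61 to 80 against vehicle series 1, 1943 to 2279 against vehicle series 2, 33 to 43 against both untreated series, 703 to 853 against tofacitinib and 242 to 334 against the 9 treatments. Fewer libraries then enter the fit. Of the 48 called genes, 17 lost the call without at least 1 library, and all 17 are named in the report. With no filter on low counts 5 lost it, 2 with the replicate block and 1 under limma-voom. CD14, which was not called, had log2 fold changes of -0.256 to 0.0144 over all the alternatives tried, and PPP1R27, also not called against both series, -0.0914 to 0.00749. CD14 turned positive without the first SLS library (0.0144) or the first of vehicle series 2 (0.00789), and PPP1R27 without the second SLS library (0.00749) or the third of vehicle series 1 (0.0024).

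The replicate numbers of the labels only name the libraries: deviations of same-numbered libraries correlated at -0.02 to 0.01, so no pairing was used. With the replicate block the counts were 47 against both vehicle series, 100 against series 1, 2760 against series 2, 48 against both untreated series, 1200 against tofacitinib and 543 against the 9 treatments. For genes with few counts, such as CD86 and ICAM1, the low counts limited what the test could detect.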
